A study of Rattus norvegicus with 6 samples.

Results

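The 10 Frizzled genes, Fzd1 to Fzd10, encode the receptors that Wnt proteins bind at the cell surface. The members were set by gene symbol, but the family was put forward when results of these data were already known. In the annotation of the array, 10 probe sets, the groups of probes that each measure one transcript cluster, named 1 of these genes and no other. They covered 9 of the 10 genes, because Fzd7 was the symbol of none of the 68842 probe sets tested. Fzd8 was named by 2 probe sets, and the one with the higher mean over the 6 arrays stood for it. Hippocampal RNA came from 3 rats that received 2.5% sevoflurane, an inhaled anesthetic, in 100% oxygen for 4 h, and from 3 control rats that received 100% oxygen for 4 h. All 6 were male Sprague-Dawley rats, 18 months old, and the hippocampus was taken 3 h after anesthesia. The control rats thus also breathed pure oxygen, and each array holds 1 rat. The authors deposited 1 normalized expression value on the log2 scale for each probe set and array, so that a difference of 1 stands for a doubling.

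A Frizzled protein crosses the membrane several times and binds Wnt through a cysteine-rich domain outside the cell. With the co-receptors Lrp5 or Lrp6 it recruits Dishevelled and keeps β-catenin from being destroyed, so that β-catenin enters the nucleus and acts with the Tcf and Lef factors. Other Frizzled signals run through planar polarity proteins or calcium. In the hippocampus, Wnt signals are known for their part in the birth of granule neurons and in the formation of synapses. By sequence the receptors form the groups Fzd1, Fzd2 and Fzd7, then Fzd5 and Fzd8, then Fzd4, Fzd9 and Fzd10, and then Fzd3 and Fzd6.

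The level of Fzd9 and Fzd8 rose and that of Fzd2 fell with sevoflurane when judged by limma's unadjusted p, with a threshold of 0.05, so 3 of the 9 measured Frizzled genes passed. Over all probe sets 1.61% passed, 0.864% with a higher and 0.745% with a lower level, and over the brightest probe set of each of 22093 genes 1.32% passed. After Benjamini-Hochberg adjustment over all 68842 probe sets 0 Frizzled genes passed, and each had an adjusted p of 1 from limma. Of the whole array 0% passed after adjustment, where limma gave 0.184 as the lowest adjusted p and 1108 probe sets had an unadjusted p under 0.05. On 4 of the 9 genes, Fzd9, Fzd8, Fzd4 and Fzd2, the values of the 2 groups were fully separate, 3 genes higher and 1 lower, as they were for 5.47% of all probe sets, 3.12% higher and 2.35% lower. These 9 genes were put forward when results of these data were already known. The threshold count was 5 without sevoflurane replicate 1, when Fzd1 and Fzd5 also passed and 6.01% of all probe sets did, and 1, Fzd9, when sevoflurane replicate 2 was left out (1.66% of all probe sets). It was 6 with array weights (13.9%) and 1, Fzd9, with the replicate number as a block (0.712%). With a filter on dim probe sets, which removed Fzd8, 2 of 8 genes passed (1.95%).

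**Figure D1:**
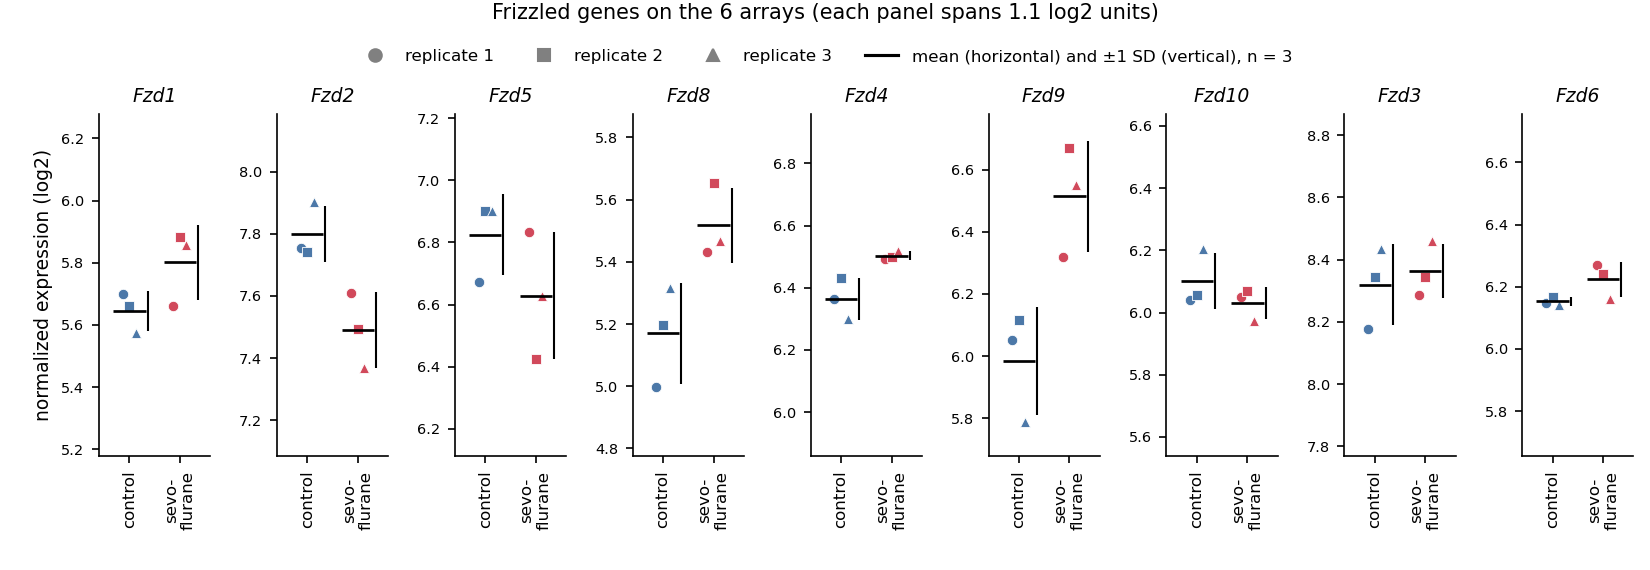
Normalized expression on the log2 scale (vertical axis) of the 9 measured Frizzled genes on the 3 control and 3 sevoflurane arrays, 1 panel a gene, with the mean (horizontal line) and 1 SD (vertical line). All sevoflurane points of Fzd9, Fzd8 and Fzd4 lie above the control points, those of Fzd2 lie below them, and the other 5 genes overlap.

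The sequences before the transcription start show which short elements lie there in the genes that rose, and in the closest relative of Fzd8, which did not. RefSeq windows of 300 bases, from 250 before to 50 after the start in the GRCr8 build, were found for 7 of the 10 genes and not for Fzd2, Fzd3 and Fzd6. Capitals mark GC boxes (GGGCGG), known as sites of Sp1, and CCAAT boxes (CCAAT), both searched on each strand, with overlapping GC boxes each counted.
Fzd9, chr12:27063390-27063689, + strand: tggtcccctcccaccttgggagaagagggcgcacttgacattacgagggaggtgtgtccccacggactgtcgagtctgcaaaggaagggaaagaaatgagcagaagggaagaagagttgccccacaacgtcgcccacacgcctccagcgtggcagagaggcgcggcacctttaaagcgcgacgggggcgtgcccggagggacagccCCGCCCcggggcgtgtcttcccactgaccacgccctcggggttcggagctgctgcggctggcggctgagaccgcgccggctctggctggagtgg
Fzd8, chr17:62009744-62010043, + strand: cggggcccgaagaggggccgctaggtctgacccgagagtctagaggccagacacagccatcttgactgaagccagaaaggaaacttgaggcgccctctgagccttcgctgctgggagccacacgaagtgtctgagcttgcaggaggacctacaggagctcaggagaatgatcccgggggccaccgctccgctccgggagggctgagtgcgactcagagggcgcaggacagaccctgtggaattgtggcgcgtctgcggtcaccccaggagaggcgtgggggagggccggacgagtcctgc
Fzd5, chr9:73613990-73614289, - strand: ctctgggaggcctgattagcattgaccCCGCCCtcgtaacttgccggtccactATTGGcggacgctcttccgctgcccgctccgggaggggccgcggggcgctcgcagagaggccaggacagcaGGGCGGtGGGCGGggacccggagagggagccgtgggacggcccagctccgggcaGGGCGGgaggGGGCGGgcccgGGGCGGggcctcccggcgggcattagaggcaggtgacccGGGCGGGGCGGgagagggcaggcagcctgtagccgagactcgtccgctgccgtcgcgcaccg
The Fzd9 window held 1 GC box, the Fzd8 window none and the Fzd5 window 8. A GC box was in the windows of 4 of the 7 Frizzled genes and in 33.1% of 33465 windows of the same length, and a CCAAT box in 4 of 7 and in 37.5%. All 7 windows were richer in G and C than the median window (51.7%), from 64.3% in Fzd7 to 75.7% in Fzd5, with 66.7% in Fzd9 and 65.3% in Fzd8. The core of a Tcf or Lef site (CTTTGA, either strand) was found in the Fzd7 window and in none of the other 6, against 16.1% of all windows. The TATA box TATAAA and the E-box CACGTG, searched likewise, were in none of the 7, against 14.2% and 6.42% of all windows. A match describes the letters of a window and is not a measured site.

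Fzd9 showed the largest difference of the family. In mice, loss of this receptor alters the development of the hippocampus, and in humans the gene lies in the region deleted in Williams syndrome. Its normalized expression (log2) was 6.05, 6.12 and 5.79 in control replicates 1, 2 and 3 and 6.32, 6.67 and 6.55 in sevoflurane replicates 1, 2 and 3. The lowest sevoflurane array lay above the highest control array by 0.20, and the highest value was that of sevoflurane replicate 2. The mean rose from 5.98 ± 0.17 (SD, n = 3) to 6.51 ± 0.18 (SD, n = 3), a log2 difference of 0.53 with a standard error of 0.14 and a 95% interval of 0.21 to 0.85, that is 1.44-fold. The unadjusted p was 0.00473 from limma, the smallest of the 9 genes and number 80 in rising order over the whole array. The exact two-sided permutation p was 0.1, the smallest that 3 arrays against 3 can give, and this holds for every permutation p of 0.1 here. With each array left out in turn the difference was between 0.43 and 0.63, and its unadjusted p stayed under 0.05 from limma, at most 0.0258.

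Fzd8, known for binding Wnt proteins with high affinity through its cysteine-rich domain, rose on both of its probe sets. On the brighter one the log2 values were 4.997, 5.20 and 5.32 in controls and 5.43, 5.65 and 5.47 after sevoflurane, and the groups were 0.11 apart. The mean went from 5.17 ± 0.16 (SD, n = 3) to 5.52 ± 0.12 (SD, n = 3), a log2 difference of 0.35 (standard error 0.13, 95% interval 0.06 to 0.64), with an unadjusted p of 0.0237 from limma. On the dimmer probe set the control values were 4.88, 5.13 and 5.18 and the sevoflurane values 5.61, 5.61 and 5.34. The difference there was 0.46 (standard error 0.13), with an unadjusted p of 0.00778 from limma, and again without overlap. Both probe sets measure the same 6 RNA samples, so the second is not a further replicate. Its level was low: the brighter one exceeded the median of 1153 negative control probe sets (RG1-neg) by -0.33, 0.00092 and 0.06 in controls and by 0.33, 0.39 and 0.14 after sevoflurane, and the dimmer one lay below that median on all 3 control arrays. Fzd8 was thus not shown to be above these controls without sevoflurane, and no fold is given. The other 8 genes lay above that median on all 6 arrays, Fzd1 by 0.31 at the least and Fzd9 by 0.53. Its p passed the threshold no longer with control replicate 1, control replicate 2 or sevoflurane replicate 2 left out, where the difference was 0.26, 0.36 and 0.28, and with quantile normalization or centring on the array median its groups overlapped.

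Fzd5, the closest relative of Fzd8 and known as a receptor that Wnt7a uses at synapses of cultured hippocampal neurons, was at 6.67, 6.90 and 6.90 in controls and 6.84, 6.43 and 6.63 after sevoflurane. Sevoflurane replicates 2 and 3 were the lowest arrays and sevoflurane replicate 1 lay within the control range. The log2 difference was -0.20 with a 95% interval of -0.51 to 0.12 (p = 0.189 from limma, exact permutation p = 0.2), and with sevoflurane replicate 1 left out it was -0.30 and passed. The change of Fzd8 exceeded that of Fzd5 by 0.54 on the log2 scale. The difference between these genes within an array, set to a mean of 0 in controls, was -0.02, -0.05 and 0.07 in controls and 0.25, 0.88 and 0.50 after sevoflurane, with no overlap (exact two-sided permutation p = 0.1, 0.125 when adjusted over 5 pairs of related receptors). The 5 pairs were chosen after the values were seen, and Fzd4 with Fzd10 was not among them. Neither the lack of overlap nor the adjusted p of any pair allows for that choice. Fzd8, Fzd2 and Fzd9 were each separate between the groups by themselves. The lack of overlap in their pairs is thus not a further result.

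Fzd2, a receptor of Wnt5a that is known for calcium signals, was the member that fell. The log2 values were 7.75, 7.74 and 7.90 in controls and 7.61, 7.49 and 7.37 after sevoflurane. Each sevoflurane array was below each control array, by 0.13 at the nearest. The mean was 7.80 ± 0.09 (SD, n = 3) and 7.49 ± 0.12 (SD, n = 3), the log2 difference was -0.31 (standard error 0.11, 95% interval -0.57 to -0.05), which is 1.24-fold lower, and the unadjusted p was 0.0259 from limma. With control replicate 3, sevoflurane replicate 2 or sevoflurane replicate 3 left out the gene did not pass, at differences of -0.26, -0.31 and -0.25. The exact permutation p was 0.1.

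Fzd1, the relative of Fzd2 that is known to act with Wnt3a on the β-catenin route, did not pass the test. It was at 5.70, 5.66 and 5.57 in controls and at 5.66, 5.88 and 5.86 after sevoflurane, where replicate 1 lay among the controls and replicates 2 and 3 above them. The log2 difference was 0.16 with a 95% interval of -0.10 to 0.41 (p = 0.194 from limma, exact permutation p = 0.2), and with sevoflurane replicate 1 left out it was 0.23 and passed. The change of Fzd1 exceeded that of Fzd2 by 0.47, and the within-array differences of the pair did not overlap between groups (exact permutation p = 0.1, adjusted p = 0.125 over the 5 pairs). Fzd2 was already separate by itself, and the pair was chosen after the values were seen.

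Fzd4 and Fzd10 belong to the same sequence group as Fzd9. Fzd4, the receptor through which Norrin acts on the vessels of the retina and the brain, was at 6.36, 6.43 and 6.30 in controls and at 6.49, 6.50 and 6.52 after sevoflurane. The sevoflurane values were close together and above all controls, by 0.06 at the nearest. The log2 difference was 0.14 (95% interval -0.09 to 0.37, p = 0.206 from limma, exact permutation p = 0.1). The methods' own test, which takes the spread from each probe set alone, passed Fzd4 at an unadjusted p of 0.0251, which made 4 Frizzled genes (2.52% of all probe sets), and with array weights its p was 0.0458. With quantile normalization or centring on the array median the groups of Fzd4 overlapped. The mean level of 13 endothelial markers was 6.69 to 6.73 on the control arrays and 6.56 to 6.82 on the sevoflurane arrays. Of these markers 0 passed the test, where 1.32% of all genes did. In bulk tissue, a change in the number of cells of a type and a change in RNA per cell cannot be told apart. Fzd10, a receptor best known from the embryonic neural tube, was at 6.04, 6.06 and 6.20 in controls and 6.05, 6.07 and 5.97 after sevoflurane, with a log2 difference of -0.07 (95% interval -0.31 to 0.17). The change of Fzd9 exceeded that of Fzd10 by 0.60 and that of Fzd4 by 0.39, each without overlap of the within-array differences (exact permutation p = 0.1, adjusted p = 0.125 over the 5 pairs). Fzd9 was already separate by itself, and both pairs were chosen after the values were seen.

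Fzd3 and Fzd6, the pair known in mice for planar polarity, did not pass the test. Fzd3, which guides axon tracts, was at 8.18, 8.34 and 8.44 in controls and 8.29, 8.34 and 8.46 after sevoflurane. Fzd6, which orients hair, was at 6.15, 6.17 and 6.14 in controls and 6.27, 6.24 and 6.16 after sevoflurane. Both genes overlapped between groups, with a log2 difference of 0.04 for Fzd3 (95% interval -0.22 to 0.31) and of 0.07 for Fzd6 (95% interval -0.16 to 0.30). The change of Fzd6 differed from that of Fzd3 by 0.03 (exact permutation p = 0.8). The 6 genes that did not pass had unadjusted p of 0.189 to 0.711 from limma.

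**Figure D2:**
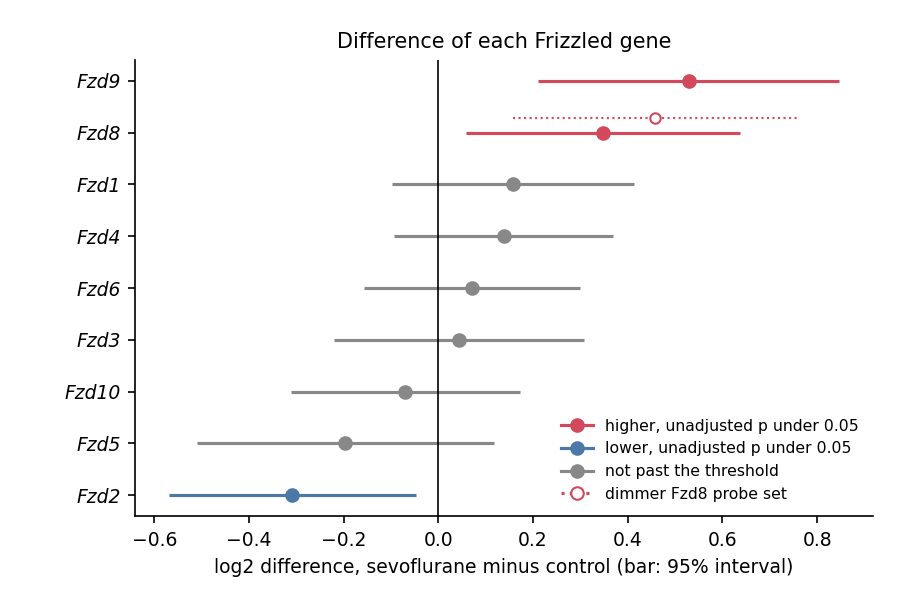
Log2 difference between sevoflurane and control (horizontal axis) for each of the 9 Frizzled genes, with its 95% interval from limma, and an open point for the dimmer probe set of Fzd8. The intervals of Fzd9 (0.21 to 0.85), Fzd8 (0.06 to 0.64) and Fzd2 (-0.57 to -0.05) leave out 0, before any adjustment for the number of probe sets.

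Over the 9 genes, 6 log2 differences were positive and 3 negative, where 62.5% of all genes were positive, and their median was 0.07, against 0.01 over all probe sets and 0.02 over the brightest probe sets of all genes. No Frizzled gene had a log2 difference beyond 1.5-fold together with an unadjusted p under 0.05 from limma, against 0.19% of all genes. At that share a count of 0 among 9 genes says nothing about the family. Among the 5 pairs of relatives compared, Fzd8 and Fzd5, Fzd1 and Fzd2, and Fzd9 and Fzd10 differed in sign, although Fzd5, Fzd1 and Fzd10 did not pass the test, while Fzd9 and Fzd4, and Fzd6 and Fzd3, had the same sign. The members that passed were not all most extreme on the same array. Relative to the control mean, sevoflurane replicate 2 was highest for Fzd9 (0.69) and Fzd8 (0.48), while Fzd2 was lowest on sevoflurane replicate 3 (-0.43). Sevoflurane replicate 1 had the smallest deviation of the 3 sevoflurane arrays for Fzd9 (0.33), Fzd8 (0.26) and Fzd2 (-0.19). That array stood apart over all probe sets, with a mean correlation of 0.986 with the other arrays against 0.991 to 0.993 for the others, and with a narrower spread of values, an SD of 1.85 against 1.93 to 2.03.

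**Figure D3:**
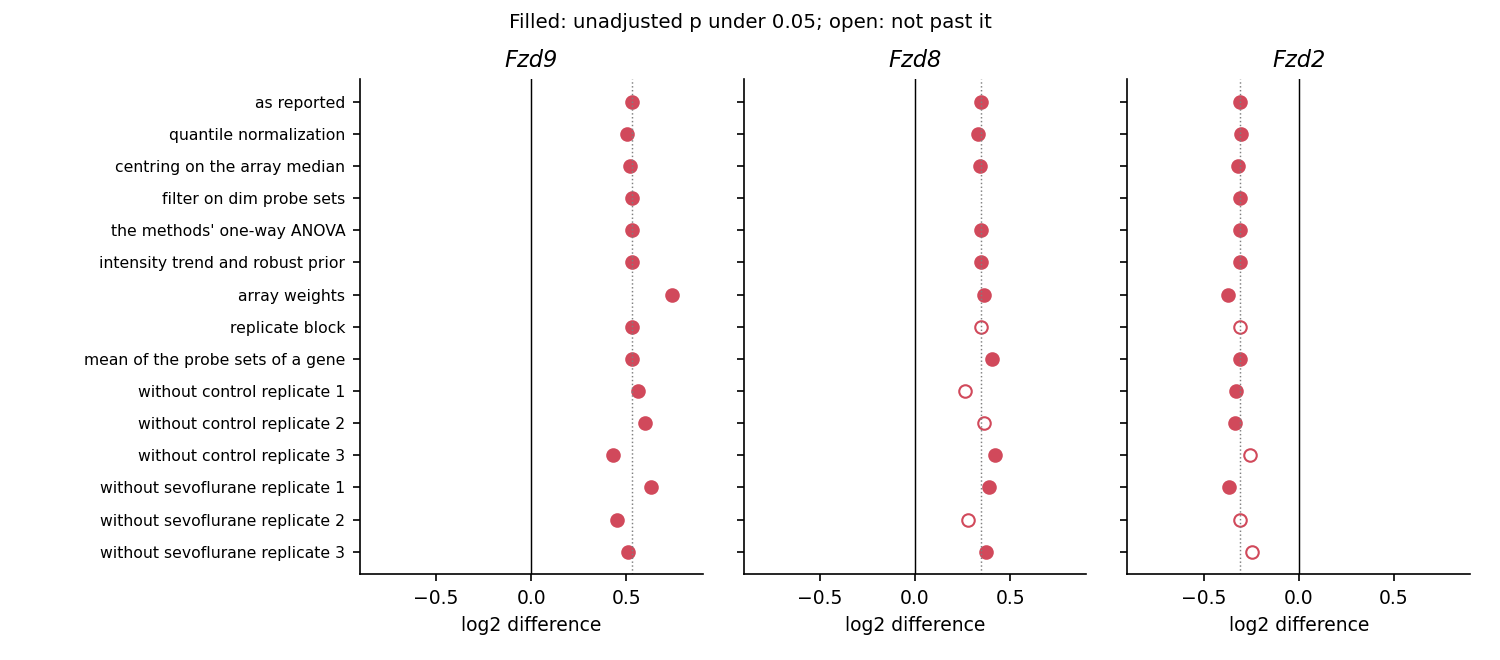
Log2 difference between sevoflurane and control (horizontal axis) of Fzd9, Fzd8 and Fzd2 as reported and under each other setting (rows), filled where the unadjusted p was under 0.05. Fzd9 is filled in every row, Fzd8 and Fzd2 are open with the replicate number as a block and with 3 arrays left out, and the row of the filter on dim probe sets has no point for Fzd8.

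The other genes of the Wnt pathway, in 9 lists made by role, passed the test about as often as all genes did. Of 150 measured genes outside the Frizzled family, 2 rose and none fell at an unadjusted p under 0.05 from limma, which is 1.33% against 1.32% over all genes, and their median log2 difference was 0.01. This count was 1 with control replicate 1 (0.906% of all probe sets), control replicate 2 (1.7%) or sevoflurane replicate 2 (1.66%) left out. It was 4 with sevoflurane replicate 1 left out, where 6.01% of all probe sets passed. None of 19 Wnt ligands passed. Their differences lay between -0.07 and 0.16 with a median of 0.05, and Wnt4, a ligand with the smallest p among them, was at 0.12 (p = 0.298 from limma, exact permutation p = 0.2). None of 3 genes of ligand secretion and Norrin passed, and Ndp, which encodes the Fzd4 ligand Norrin, was at -0.12 (p = 0.432 from limma, exact permutation p = 0.8).

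None of 13 co-receptors and other Wnt receptors passed, where Gpc4, a glypican that binds Wnt at the cell surface, was at -0.20 (p = 0.126 from limma, exact permutation p = 0.1) with all sevoflurane arrays below the controls. Tspan12, of the same list, was separate and higher, at 0.13 (p = 0.207 from limma, exact permutation p = 0.1). Of the 150 pathway genes 6 were separate and higher and 5 separate and lower, against 3.12% and 2.35% of all probe sets. None of 19 inhibitors passed. Frzb, a secreted protein with a Frizzled-like domain that holds Wnt away from its receptors, had the smallest p, at a log2 difference of -0.23 (p = 0.101 from limma, exact permutation p = 0.1), from 7.72, 7.40 and 7.42 in controls to 7.26, 7.22 and 7.37 after sevoflurane, without overlap. None of 11 R-spondin and turnover genes passed, the set that holds the ubiquitin ligases Znrf3 and Rnf43, which remove Frizzled from the membrane, and Lgr5, the R-spondin receptor with the smallest p, was at 0.12 (p = 0.332 from limma, exact permutation p = 0.3). None of 26 genes of Dishevelled and the destruction complex passed, with Ctnnb1, the gene of β-catenin, at 0.17 (p = 0.181 from limma, exact permutation p = 0.3).

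Of 16 nuclear partners of β-catenin, Tcf7l2, a DNA-binding factor, rose. Its log2 values were 7.45, 7.36 and 7.35 in controls and 8.09, 8.97 and 7.66 after sevoflurane, so that the 3 sevoflurane arrays lay above the controls but far apart. The log2 difference was 0.85 (standard error 0.285, p = 0.0164 from limma, exact permutation p = 0.1), and with sevoflurane replicate 2 left out it was 0.49. By the methods' own test Tcf7l2 did not pass, with an unadjusted p of 0.093. Tcf7l2 is known for its high level in the thalamus, which lies next to the hippocampus. The mean of 13 markers of thalamus and habenula was 6.65 to 6.72 on the control arrays. On sevoflurane replicates 1, 2 and 3 it was 7.09, 7.60 and 6.87. Of the 13 markers 6 rose and none fell at an unadjusted p under 0.05 from limma, against 0.864% and 0.745% of all probe sets. Over all genes 1.32% passed in either direction. This list was made with earlier results of these data known, and it holds Prkcd, which the authors reported as raised. The count is thus a description of the list. Tcf7l2 and the marker mean had the same order on the 3 sevoflurane arrays, highest on replicate 2 and lowest on replicate 3. Above their control means Fzd9 was at 0.33, 0.69 and 0.57 and Fzd8 at 0.26, 0.48 and 0.30 on the same arrays, where the marker mean was at 0.40, 0.91 and 0.18. The part of such tissue in the values of Fzd9, Fzd8 or Tcf7l2 was not tested.

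**Figure D4:**
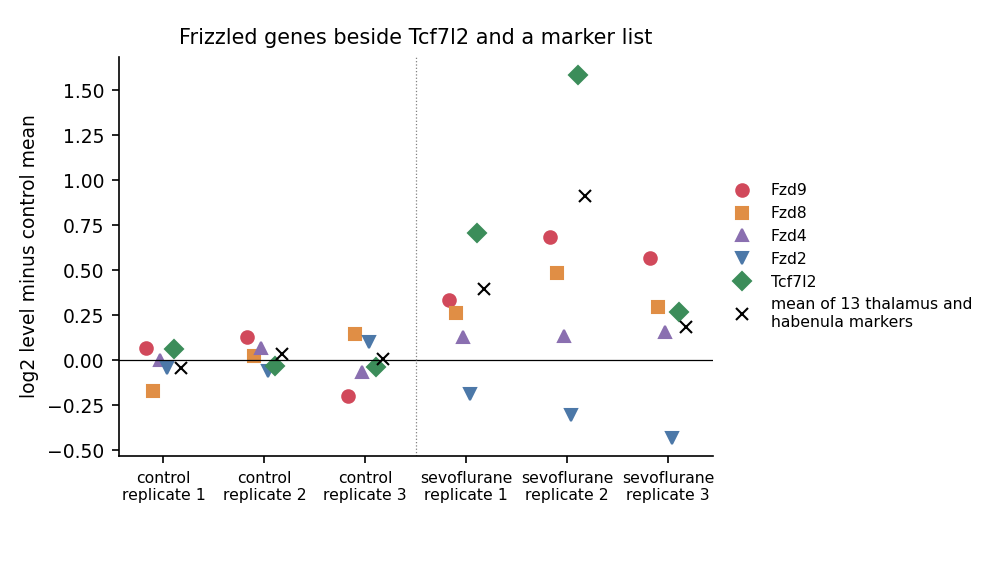
Log2 level minus the control mean (vertical axis) of Fzd9, Fzd8, Fzd4, Fzd2, Tcf7l2 and the mean of 13 thalamus and habenula markers on each of the 6 arrays. On sevoflurane replicates 1, 2 and 3 Fzd9 is at 0.33, 0.69 and 0.57 and Fzd8 at 0.26, 0.48 and 0.30. The marker mean is at 0.40, 0.91 and 0.18 there. A single gene and a mean of 13 need not share a scale, and the part of such tissue was not tested.

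Of 35 genes of the planar polarity and calcium branches, Plcb4, a phospholipase C that is also known for its expression in the thalamus, rose from 6.83, 7.01 and 7.15 to 7.25, 7.43 and 7.28. Its log2 difference was 0.33 (standard error 0.12, p = 0.0285 from limma, exact permutation p = 0.1). It did not pass with control replicate 1, control replicate 2 or sevoflurane replicate 2 left out, at differences of 0.24, 0.33 and 0.27. None of 18 measured target genes of β-catenin passed. Their median log2 difference was 0.01 and their range -0.11 to 0.22, and Lef1, a target and partner of β-catenin with the smallest p, was at 0.22 (p = 0.13 from limma, exact permutation p = 0.2).

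**Figure D5:**
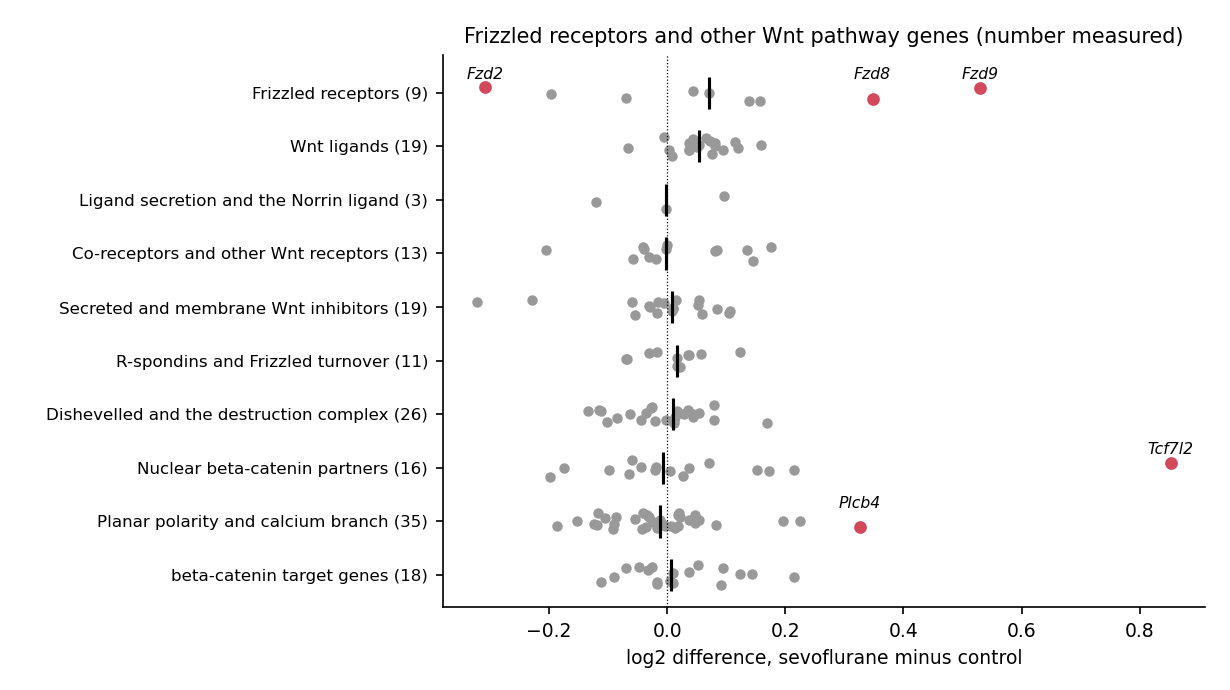
Log2 difference between sevoflurane and control (horizontal axis) of the Frizzled genes and of the genes of 9 other Wnt pathway lists (rows, with the number measured), 1 point a gene, the median as a line, and the genes with an unadjusted p under 0.05 in red. Outside the Frizzled row 2 genes, Tcf7l2 at 0.85 and Plcb4 at 0.33, passed, and the medians of the 9 lists lie between -0.01 and 0.05.

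As a check of the labelled tissue, 11 of 12 hippocampal neuron markers lay above the median of the negative control probe sets on all arrays, and Spink8, at 4.11 to 4.44, lay below it. Their means were 8.30 to 8.46 in controls and 8.17 to 8.42 after sevoflurane. Of the 12 markers 0 passed the test, where 1.32% of all genes did. The marker lists were made with earlier results of these data known. Of 11 oligodendrocyte lineage markers 3 passed (27.3%, against 1.32% of all genes), Mag at 0.39 and Olig1 at 0.39 higher and Opalin at -0.61. The mean of the 11 was 8.39 to 8.60 in controls and 8.53 to 8.62 after sevoflurane. Of 10 astrocyte markers 1 passed, Aldoc at 0.30, with means of 9.14 to 9.24 and 9.22 to 9.28. Of 10 microglia markers 1 passed, C1qc at 0.50, and the mean was 7.28 to 7.33 in controls and 7.34, 7.35 and 7.98 on sevoflurane replicates 1, 2 and 3. Of 14 mural and fibroblast markers 1 passed, Pdgfra at 0.27, while the median log2 difference of the list was 0.03. The mean of the 14 was 6.81 to 6.83 in controls and 6.74 to 6.98 after sevoflurane. The rise of Pdgfra was not assigned to a cell type. Of 11 choroid plexus markers 1 passed, Cldn2 at 0.24, with values of 3.78 to 3.91 in controls and 4.03 to 4.17 after sevoflurane. Cldn2 lay below the median of the negative control probe sets on all arrays, so a rise was not shown. The part of these cell types in the Frizzled values was not tested. Levels are not ranked between Frizzled genes, because probes of different genes bind with different strength.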

How the data were processed

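The 6 hippocampal samples were each run on a Clariom D Pico array (1 colour). The authors deposited normalized log2 values, 1 for each of 70580 probe sets and array. Among the tools in the submitters' processing notes are MAS5, RMA and Affymetrix Expression Console 1.4.1, with no role given, so the step that gave the values is not known. If arrays were scaled to each other, a change common to most genes would not be seen. The 1738 array controls were left out. Symbols came from the annotation of the platform, and 22077 probe sets were matched to RefSeq by gene ID. The number of arrays limits the precision.

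For each of 68842 probe sets the labelled groups were compared by a two-sided moderated test (limma 3.58.1 under R 4.3.3, functions lmFit and eBayes), with Benjamini-Hochberg adjustment. This test was checked on simulated data. The methods name a one-way ANOVA, which was an alternative, beside array weights, a filter on dim probe sets, quantile normalization, a trended robust prior, centring on array medians, the replicate number as a block, the mean of a gene's probe sets, and each array left out. The default method of array weights did not converge, so the gene-by-gene method was used. Exact permutation tests over the 6 arrays took single genes and 5 pairs of related receptors, and the pairs were chosen after the values were seen.

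The members and lists were chosen with earlier results of these data known. All Frizzled genes are named, and of each pathway list the genes with an unadjusted p under 0.05 or, where there was none, the gene with the smallest p. Tspan12 is named besides, because it was separate in the direction opposite to Gpc4. Promoter windows came from RefSeq (GRCr8). Figures were drawn with matplotlib 3.10.9 in Python 3.11.15.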

Additional observations from a re-analysis of the deposited data

How the results depend on the processing

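Under all 14 alternatives Fzd9 kept its direction and an unadjusted p under 0.05, with log2 differences of 0.43 to 0.74. Fzd8 and Fzd2 kept their directions, from 0.26 to 0.42 and from -0.37 to -0.25, wherever they were tested, as the filter on dim probe sets removed Fzd8. No Frizzled gene passed after adjustment in any fit. The count of 3 genes at an unadjusted p under 0.05 was 6 with array weights, where 13.9% of all probe sets passed. Control replicate 3 had a weight of 3.035 and sevoflurane replicate 2 of 3.25, and the other arrays had 0.17 to 0.95. That fit thus rested mostly on control replicate 3 and sevoflurane replicate 2. With 1 array left out the count was between 1 and 5 (0.906% to 6.01% of all probe sets). With the replicate number as a block it was 1, Fzd9, as Fzd8 and Fzd2 no longer passed. The numbers are not known to pair the rats, and the deviations of same-numbered arrays correlated at -0.585, -0.288 and 0.0263. The count without overlap was 2 with quantile normalization, Fzd9 and Fzd2. The 2 other pathway genes became 5 with quantile normalization (3.04% of all probe sets) and 6 with the methods' one-way ANOVA (2.52%), by which Tcf7l2 did not pass. They became 10 with array weights (13.9%, with Tcf7l2 at 1.31), 1 with the block (0.712%), and between 1 and 4 with 1 array left out (0.906% to 6.01%). Fzd3 turned to -0.013 with array weights and lay between -0.026 and 0.102 with 1 array left out, and Ndp turned to 0.034 and lay between -0.224 and 0.031. The cause of these changes was not tested. The other probe set of Fzd8 was tried after seeing the data.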
